A study of Homo sapiens with 6 samples.

Results

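The genes described here encode histone deacetylases, the corepressor complexes that carry them, and the acetyltransferases and readers that act on the same lysines. They were chosen by gene symbol as 37 rows of a deposited table of 16315 genes, and all 37 were found. All 37 were also among the 13841 genes that passed the filter on low values, a mean CPM (reads scaled to library size) of 1 or more over the 6 libraries. They comprise 6 classical deacetylases, 4 sirtuins, 9 subunits of the NuRD complex, 2 histone chaperones shared by NuRD and SIN3, 5 SIN3 subunits, 2 CoREST subunits, 2 WD-repeat subunits of the NCOR complex, 5 acetyltransferases and 2 BET readers.

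RNA was measured in F36P, an established human cell line that stands for acute erythroid leukaemia. Cells carried a guide RNA against HDAC7 (sgHDAC7, labelled HDAC7 knockout) or a non-targeting guide (sgNT, labelled wild type), and both arms went through 1 µg/ml puromycin for 4 days. Each arm had 3 libraries labelled as biological replicates. Whether these came from separate transductions or cultures, and how many guides were used per arm, is not given in the sources used here, so the p-values describe only the spread between these libraries. Library totals ran from 10039693 to 12521195 counts, and the 37 genes together took 0.559% to 0.571% of the counts in each library. Erythroid markers were present (GATA1 at 231 ± 5.88 CPM in sgHDAC7 and 226 ± 25.0 in sgNT, both n = 3), while of 9 markers of other cells CD3E, MS4A1 and CD14 had no row in the table and LYZ was highest at 86.4 ± 8.90 and 96.0 ± 13.8 CPM. HDAC7 itself stood at 194, 239 and 246 CPM in sgHDAC7 replicates 1, 2 and 3 and 449.9, 460.4 and 462 CPM in sgNT (a log2 fold change of -1.02 ± 0.09 with an adjusted p of 0.00139 in edgeR). Replicate 1 of both arms stood apart from replicates 2 and 3, so each difference is also given with a term for replicate 1 where that changes the call.

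Histone deacetylases remove acetyl groups from lysines and generally favour compact, silent chromatin. The class I enzymes HDAC1 and HDAC2 work as the catalytic subunits of NuRD, SIN3 and CoREST, which add scaffolds, methyl-CpG binding proteins, chaperones and, in CoREST, the lysine demethylase KDM1A. In erythroid precursors GATA1 recruits NuRD through its cofactor ZFPM1, and GFI1B recruits CoREST. Class IIa enzymes such as HDAC7 have weak catalytic activity of their own and act largely through the NCOR complex. Acetyltransferases such as EP300 and CREBBP write the mark, and BET proteins such as BRD2 bind it.

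None of the 37 genes passed the test between sgHDAC7 and sgNT (edgeR quasi-likelihood test, Benjamini-Hochberg adjusted p under 0.05; smallest adjusted p = 0.154, for MBD3), where 2.86% of all genes tested were called (1.16% higher, 1.7% lower). The count was also 0 with DESeq2 (5.45% of all genes called), limma-trend (2.6%, or 2.67% with the larger pseudocount), RLE or upper-quartile scaling (2.77% each), no filter (2.38%), a filter at 5 CPM, which HDAC11 did not pass (3.75%), and the replicate block (7.21%). Leaving out 1 of the libraries other than sgNT replicate 1 also left it at 0, where 1.68% (without sgHDAC7 replicate 1), 0.202%, 0.224% (without sgHDAC7 replicates 2 and 3 in turn), 0.332% and 0.361% (without sgNT replicates 2 and 3 in turn) of all genes were called. At an unadjusted p under 0.05 the edgeR test gave 6 members (4 higher, 2 lower), or 16.2%, against 19.2% of all genes. The members' log2 fold changes had a median of 0.04, beside -0.0016 for all genes, and a median absolute size of 0.07, beside 0.15. They ran from -0.39 (RCOR1) to 0.20 (MBD3), with 24 above 0 and 13 below. On simulated counts, with changes placed in genes drawn from all those tested, edgeR called 3.98% of 1.2-fold and 41.8% of 1.5-fold changes. Rates for the members alone were not computed, and their within-arm SD of log2 CPM was smaller (median 0.08, beside 0.15 for all genes). A member with a small change can still go uncalled. The 2 arms did not overlap in 8 of the 37 (21.6%, 6 higher and 2 lower in sgHDAC7), against 25.1% of all genes (13% higher, 12.2% lower). The members stood at higher levels than most genes, with a median mean CPM of 116, beside 28.2 for all genes. Genes averaging 20 CPM or more were compared as well, a choice made after seeing the data. Of these, 23.5% had an unadjusted p under 0.05 in edgeR and 29.5% had arms that did not overlap. Their median absolute log2 fold change was 0.12. Values after ± are standard errors for log2 fold changes and SDs over 3 libraries for levels.

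**Figure D1:**
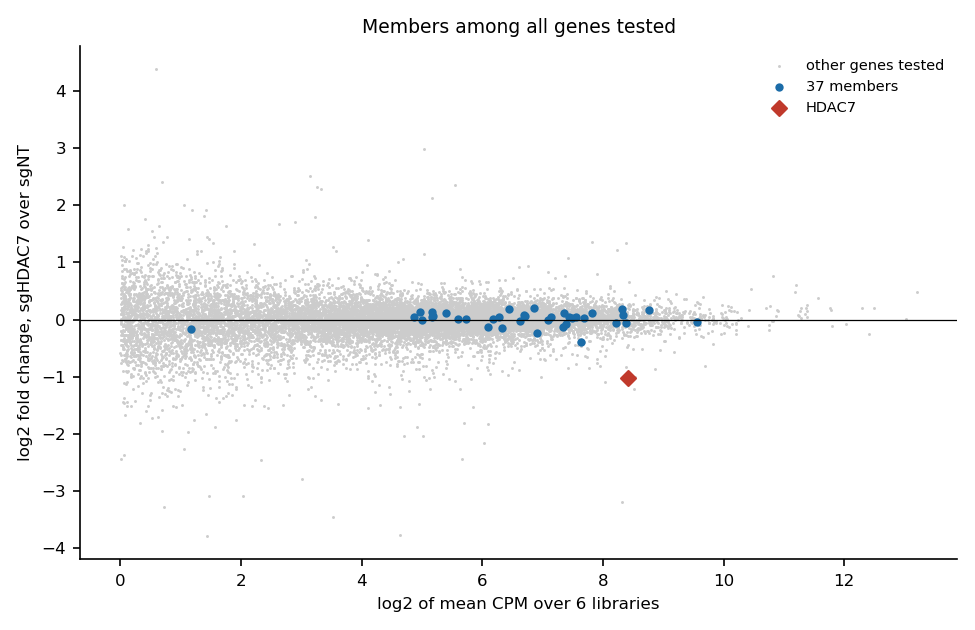
Log2 fold change of sgHDAC7 over sgNT (vertical axis) against the log2 of the mean CPM over 6 libraries (horizontal axis) for each gene tested, with grey points for other genes, blue points for the 37 members and a red diamond for HDAC7. The members lie between -0.39 and 0.20, while HDAC7 lies at -1.02.

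For 21 of the 37 members (56.8%) the 95% interval of the fold change lay wholly inside a 1.2-fold change in either direction, and for 35 (94.6%) inside 1.5-fold. The exceptions to the wider margin were RCOR1 (0.614 to 0.944 times the sgNT level) and HDAC11 (0.479 to 1.64 times). Of all genes tested, 16.1% and 62.7% had intervals inside these margins, and of the 7954 genes averaging 20 CPM or more, a comparison added after seeing the data, 27.9% and 89.4%. The within-arm SD of log2 CPM had a median of 0.08 for the members, 0.11 for genes averaging 20 CPM or more and 0.15 for all genes. In bulk RNA, fewer cells of a type and less RNA per cell cannot be told apart.

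**Figure D2:**
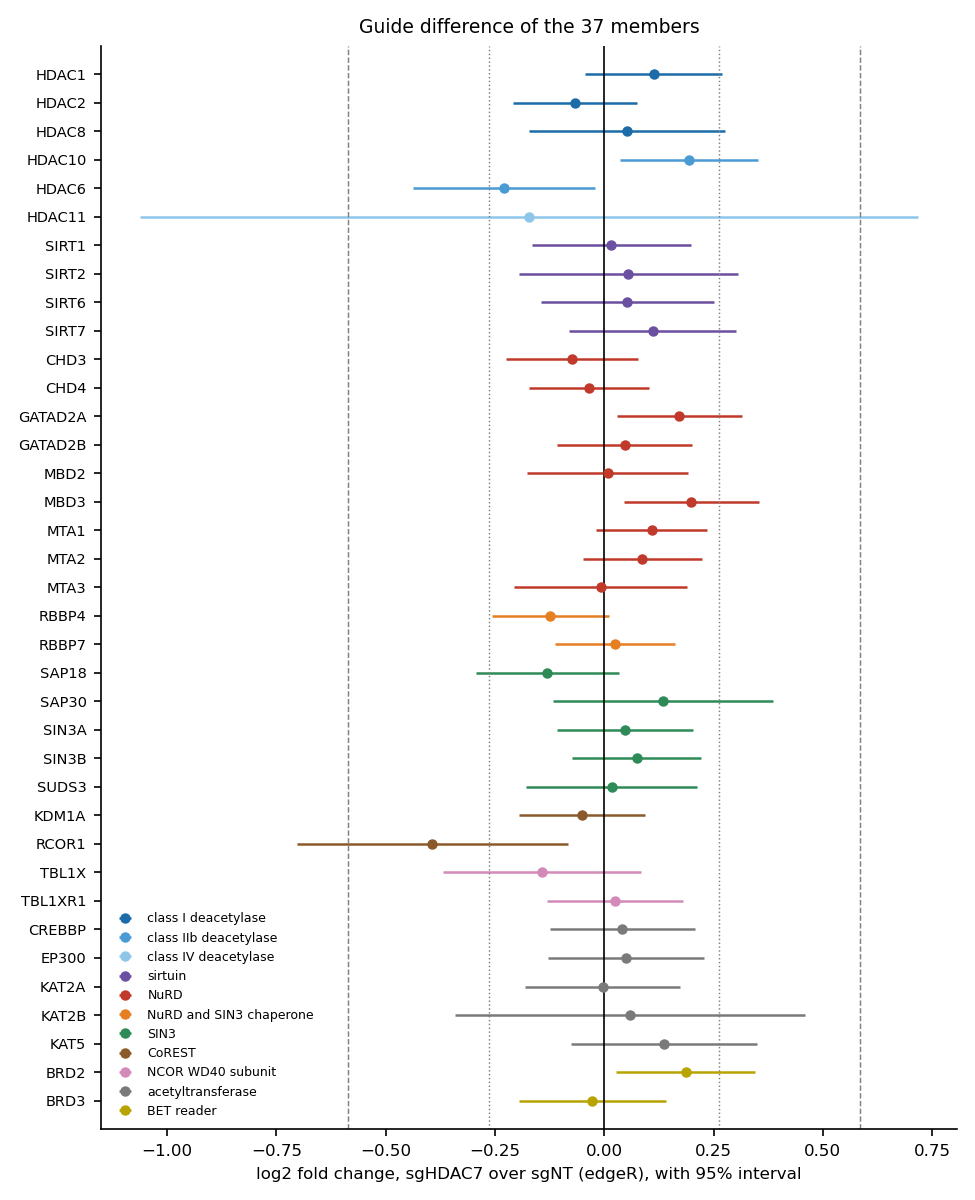
Log2 fold change of each member (edgeR, sgHDAC7 over sgNT, 3 libraries each) as a point with its 95% interval, grouped and coloured by role. Dotted lines mark a 1.2-fold and dashed lines a 1.5-fold change; the intervals of RCOR1 and HDAC11 are the 2 that cross a dashed line.

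With the term for replicate 1, 2 members were called, 1 higher and 1 lower, where 12.6% of all genes were (5.78% higher, 6.81% lower). MBD3 was the higher and RCOR1 the lower. Their promoters are printed with those of HDAC6 and BRD2, because these 4 are the members that passed the threshold in at least 2 of the 16 alternative analyses. Each window runs from 250 bases before to 50 bases after the RefSeq start (GRCh38.p14), written 5′ to 3′ on the gene's strand. Capitals mark the GC box GGGCGG, the CCAAT box and the ETS-type core CCGGAAG, each read on both strands. Against the outermost start in GENCODE 29, the RCOR1 window includes it, the HDAC6 window lies downstream of it inside the gene, and the MBD3 and BRD2 windows lie wholly upstream of it.
RCOR1 (chr14:102592399-102592698, plus strand): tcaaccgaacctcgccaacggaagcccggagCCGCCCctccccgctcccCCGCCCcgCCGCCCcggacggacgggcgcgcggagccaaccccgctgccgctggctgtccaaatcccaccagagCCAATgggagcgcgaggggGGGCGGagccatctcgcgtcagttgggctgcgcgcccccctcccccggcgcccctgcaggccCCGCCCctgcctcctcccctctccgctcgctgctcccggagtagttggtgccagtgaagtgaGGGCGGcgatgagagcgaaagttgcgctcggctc
MBD3 (chr19:1592816-1593115, minus strand): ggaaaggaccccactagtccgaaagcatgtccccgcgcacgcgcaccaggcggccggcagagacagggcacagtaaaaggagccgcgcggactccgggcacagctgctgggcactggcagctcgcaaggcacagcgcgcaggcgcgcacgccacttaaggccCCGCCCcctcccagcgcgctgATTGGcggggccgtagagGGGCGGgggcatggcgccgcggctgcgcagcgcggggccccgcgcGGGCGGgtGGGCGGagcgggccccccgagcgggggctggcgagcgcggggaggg
HDAC6 (chrX:48801817-48802116, plus strand): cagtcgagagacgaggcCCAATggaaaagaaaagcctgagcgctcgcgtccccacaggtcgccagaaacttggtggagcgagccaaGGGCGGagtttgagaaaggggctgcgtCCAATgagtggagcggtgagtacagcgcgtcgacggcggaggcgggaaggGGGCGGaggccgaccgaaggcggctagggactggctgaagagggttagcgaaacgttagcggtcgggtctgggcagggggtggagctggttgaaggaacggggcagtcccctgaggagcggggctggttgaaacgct
BRD2 (chr6:32968344-32968643, plus strand): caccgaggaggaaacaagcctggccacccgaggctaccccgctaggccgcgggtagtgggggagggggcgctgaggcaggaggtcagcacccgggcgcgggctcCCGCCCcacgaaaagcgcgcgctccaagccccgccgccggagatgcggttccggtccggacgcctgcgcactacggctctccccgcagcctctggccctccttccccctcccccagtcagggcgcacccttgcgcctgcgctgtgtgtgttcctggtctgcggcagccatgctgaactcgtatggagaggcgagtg

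Promoter windows were found in RefSeq for 35 of the 37 members. A GC box occurred in 27 of the 35 (77.1%), against 44.6% of 27305 promoter windows, 1 per annotated symbol. All windows here include genes without a row among the counts, whereas the members all passed the filter on low values. Shares over the tested genes alone were not computed. The ETS-type core was found in 7 members (20%), against 10.7% of all windows, and the CCAAT box in 13 (37.1%), near the 35.7% of all windows. The TATA box, searched as TATAAA on both strands, was in 1 member (2.86%), against 12% of all windows. A sequence bound by GATA factors, searched as AGATAA on both strands, was in 2 members (5.71%), against 10.5% of all windows. The core of the response element of ATF4, searched as TGATGCAA on both strands, was in the window of TBL1X alone among the members (2.86%), against 0.923% of all windows. The E-box CACGTG, a palindrome bound by MYC and related factors, was in 4 members (11.4%), against 7.43% of all windows. The median GC content was 69.3% over the members and 58.3% over all windows. GC-rich, TATA-less starts are common among broadly expressed genes. These counts describe letters in a window and no bound site.

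Levels between genes are compared per kilobase of exon. In sgNT, CHD4, the remodelling ATPase of NuRD, and KDM1A were highest at 112 ± 1.83 and 108 ± 3.93 CPM per kb (n = 3 for each value here), with overlapping library ranges. MTA2, a NuRD scaffold, followed at 91.8 ± 4.13. Then came MTA1, RBBP7 and HDAC1 at 75.1 ± 1.14, 75.1 ± 2.81 and 73.9 ± 5.37, which overlapped, and the NuRD bridge GATAD2A at 65.5 ± 2.77. The lowest were the acetyltransferase KAT2B at 7.39 ± 1.84, MTA3 at 4.80 ± 0.14, HDAC8 at 2.54 ± 0.20 and HDAC11 at 0.694 ± 0.10 CPM per kb. Of the 36 neighbours in this order, 24 had overlapping library ranges and 12 did not. Some levels depend on the length used. By the longest transcript HDAC8 stood at 5.06, HDAC6 at 30.9, SIN3A at 20.6 and RBBP7 at 87.7 CPM per kb. By all exons HDAC6 stood at 22.8 and SIN3A at 13.3. Other levels did not change, such as that of HDAC1. Exons of CHD4 and HDAC10 lie to 86.0% and 86.8% within other annotated genes on the same strand, and those of KAT5 to 45.9% within one on the other strand. In all, 12 members share over 5% of their exon bases with other genes on either strand, among them BRD3 (20.9%, other strand) and KAT2A (13.0%, same strand). Because the use of strand in counting is not given in the sources used here, reads of such overlaps cannot be assigned with certainty. Annotated copies named after a member exist for 4 members, HDAC1 (2 copies), RBBP4 (6), SAP18 (3) and SUDS3 (1), whose reads may carry a like uncertainty.

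**Figure D3:**
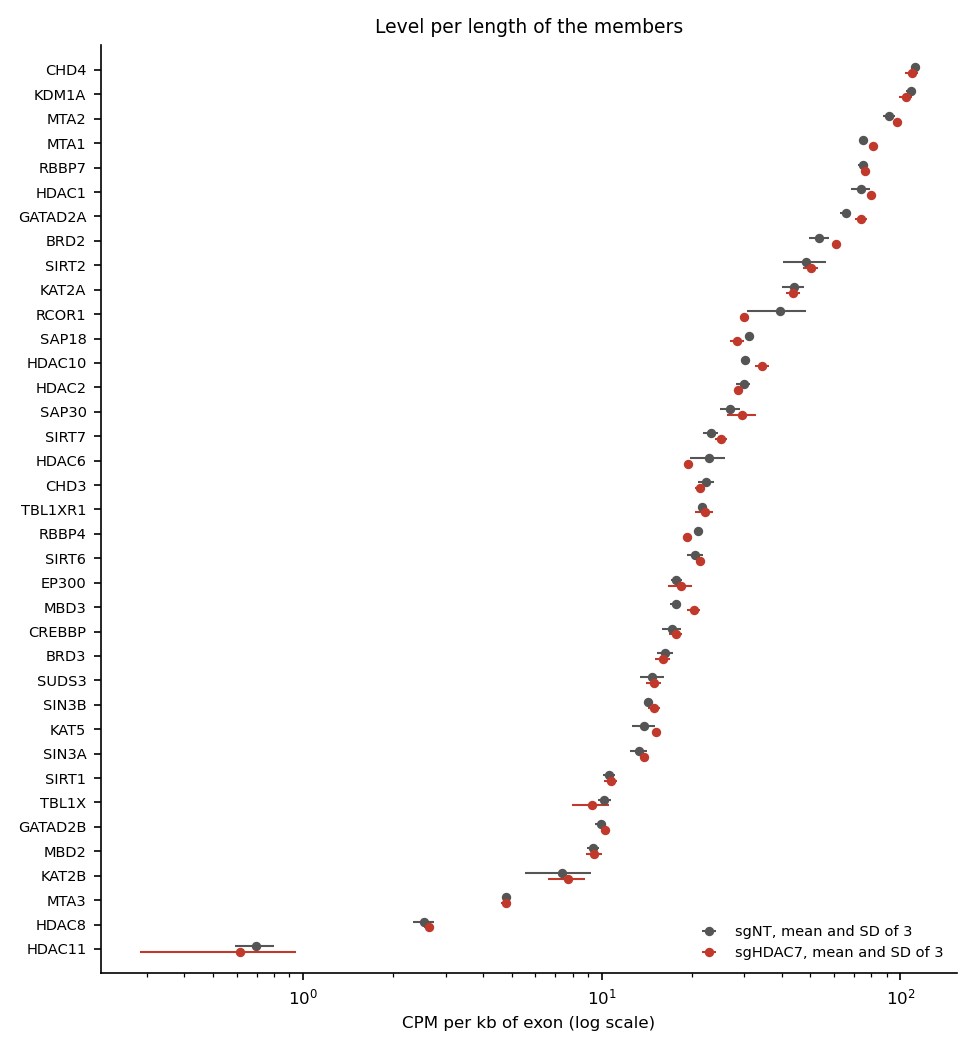
Level of each member as CPM per kb of exon on a log axis, mean and SD of 3 libraries for sgNT (grey) and sgHDAC7 (red), ordered by the sgNT level. The levels span from 0.694 (HDAC11) to 112 (CHD4) in sgNT, and the red and grey points of a gene lie close together against that range.

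Among the class I enzymes, HDAC1 had 165, 171 and 173 CPM in sgHDAC7 and 169, 146 and 155 CPM in sgNT (a log2 fold change of 0.11 ± 0.07 with an adjusted p of 0.419 in edgeR). The sgNT replicate 1 value reached into the sgHDAC7 range, so the arms overlapped. HDAC2, the closest paralogue of HDAC1, had 292, 284 and 292 CPM in sgHDAC7 and 321, 298 and 289.6 CPM in sgNT (a log2 fold change of -0.07 ± 0.06 with an adjusted p of 0.612 in edgeR), again overlapping. HDAC8, a class I enzyme that acts outside the large corepressor complexes, was low and level, at 29 to 30.9 CPM in sgHDAC7 and 26.9 to 31.4 in sgNT (log2 0.05 ± 0.10). The intervals of the fold change were 0.97 to 1.21 for HDAC1, 0.866 to 1.05 for HDAC2 and 0.888 to 1.21 for HDAC8. The intervals of 1 of the 3 class I members lay inside a 1.2-fold change.

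The 2 class IIb enzymes had fold changes of opposite sign, and neither passed the test. HDAC6, the mainly cytoplasmic tubulin deacetylase (X:48801377-48824982, plus strand), had 112, 109.6 and 110.2 CPM in sgHDAC7 and 112, 132 and 146 CPM in sgNT (a log2 fold change of -0.23 ± 0.09 with an adjusted p of 0.215 in edgeR). In sgNT replicate 1 HDAC6 was as low as in sgHDAC7, and in sgNT replicates 2 and 3 it was higher. By replicate, the log2 ratio came to 0.00456 for replicate 1 and -0.33 for replicates 2 and 3 combined, and HDAC6 passed the edgeR test without sgNT replicate 1 (-0.33 ± 0.07, adjusted p = 0.00993) but not with the replicate 1 term (adjusted p = 0.0705). HDAC10, a polyamine deacetylase, had 93.0, 88.1 and 98.2 CPM in sgHDAC7 and 83.5, 81.7 and 79.0 CPM in sgNT (a log2 fold change of 0.19 ± 0.07 with an adjusted p of 0.171 in edgeR), and here the arms did not overlap. MAPK12 shares 86.8% of the HDAC10 exon bases on the same strand, so the assignment of these reads is uncertain. HDAC11, the class IV enzyme, was the lowest member at 1.05, 1.99 and 3.318 CPM in sgHDAC7 and 1.98, 2.61 and 2.56 CPM in sgNT (log2 -0.17 ± 0.40). All 6 HDAC11 values lay above the 0.24 to 0.299 CPM that 3 counts are worth, and a difference inside its interval of 0.479 to 1.64 times was not resolved by these libraries.

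The 4 sirtuins, NAD-dependent deacetylases, had log2 fold changes of 0.02 (SIRT1) to 0.11 (SIRT7), and in each the arms overlapped. SIRT2, mostly cytoplasmic, had 99.8, 110.3 and 111 CPM in sgHDAC7 and 84.6, 106 and 118 CPM in sgNT (log2 0.06 ± 0.11). It was lower in replicate 1 than in replicates 2 and 3 of both arms, by log2 -0.27 ± 0.07 (edgeR adjusted p = 0.0475 for the replicate 1 term). Across all genes 7.01% were called for that term, and among the members SIRT2 and KAT2B were the 2 called, both lower in replicate 1. The nuclear enzymes SIRT1, SIRT6 and SIRT7 lay between 33.4 and 50.8 CPM in all 6 libraries.

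In NuRD, the log2 fold changes of 6 of 9 members were above 0 and those of 3 below. CHD4 had 783, 732 and 710.1 CPM in sgHDAC7 and 766, 746 and 768 CPM in sgNT (log2 -0.04 ± 0.06), and the alternative ATPase CHD3 had 169, 162 and 158 CPM in sgHDAC7 and 161, 181 and 172 CPM in sgNT (log2 -0.07 ± 0.07). Both overlapped between the arms. The scaffold MTA1 had 232, 232 and 238 CPM in sgHDAC7 and 216, 214 and 221 CPM in sgNT (a log2 fold change of 0.11 ± 0.06 with an adjusted p of 0.337 in edgeR) without overlap. Exons of other genes cover 9.07% of the MTA1 exon bases on the same strand and 10.5% on the other. MTA2 had 335, 337 and 327 CPM in sgHDAC7 and 329, 302 and 309 CPM in sgNT (log2 0.09 ± 0.06), and its arms overlapped. MTA3 lay between 31.2 and 33.3 CPM in all 6 libraries.

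The methyl-CpG binding subunits define alternative forms of NuRD. MBD3 (19:1573596-1592801, minus strand) had 131, 119 and 122 CPM in sgHDAC7 and 112, 103 and 109 CPM in sgNT (a log2 fold change of 0.20 ± 0.07 with an adjusted p of 0.154 in edgeR). Each sgHDAC7 library lay above each sgNT library, and by replicate the log2 ratio came to 0.22 for replicate 1 and 0.19 for replicates 2 and 3 combined. With the replicate 1 term MBD3 was higher in sgHDAC7 (log2 0.20 ± 0.06 with an adjusted p of 0.0386 in edgeR). Exons of other genes on the same strand cover 12.6% of the MBD3 exon bases. MBD2, which binds methylated CpG more strongly, had 54.0, 49.4 and 55.7 CPM in sgHDAC7 and 51.3, 51.2 and 55.8 CPM in sgNT (log2 0.01 ± 0.08). The bridging subunit GATAD2A had 477, 468 and 438 CPM in sgHDAC7 and 425, 390.4 and 412 CPM in sgNT (a log2 fold change of 0.17 ± 0.06 with an adjusted p of 0.182 in edgeR), without overlap. Its paralogue GATAD2B had 80.1, 78.1 and 77.6 CPM in sgHDAC7 and 74.2, 79.9 and 74.2 CPM in sgNT (log2 0.05 ± 0.07), with overlap. GATAD2A missed the threshold with the replicate 1 term (log2 0.17 ± 0.05 with an adjusted p of 0.0541 in edgeR).

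The chaperones RBBP4 and RBBP7 bind histone tails in NuRD and SIN3. RBBP4 had 158, 149.7 and 158 CPM in sgHDAC7 and 171, 168 and 169 CPM in sgNT (a log2 fold change of -0.12 ± 0.06 with an adjusted p of 0.299 in edgeR), lower in every sgHDAC7 library. RBBP7 had 214, 208 and 203 CPM in sgHDAC7 and 197, 212 and 206 CPM in sgNT (log2 0.03 ± 0.06), with overlap. RBBP4 has 6 annotated copies named after it and shares 21.3% of its exon bases with a gene on the other strand, so the assignment of its reads is uncertain.

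Among SIN3 subunits, the scaffold SIN3A had 145, 146 and 139 CPM in sgHDAC7 and 149, 136 and 131 CPM in sgNT (log2 0.05 ± 0.07), and SIN3B had 103, 111 and 102 CPM in sgHDAC7 and 102, 101 and 97.4 CPM in sgNT (log2 0.07 ± 0.07). SIN3B lay slightly above sgNT in every sgHDAC7 library, and SIN3A overlapped. SAP18, a subunit shared with splicing-associated complexes, was lower in every sgHDAC7 library, at 62.8 to 69.1 CPM against 69.8 to 73.2 (log2 -0.13 ± 0.07, edgeR adjusted p = 0.367). It has 3 annotated copies named after it. SAP30 and SUDS3, which hold the deacetylases in the complex, had log2 fold changes of 0.13 ± 0.11 and 0.02 ± 0.09, and their arms overlapped.

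CoREST held the member with the largest difference. RCOR1, the scaffold that joins HDAC1 or HDAC2 to KDM1A (14:102592661-102730576, plus strand), had 169, 176 and 173 CPM in sgHDAC7 and 169, 258 and 253 CPM in sgNT (a log2 fold change of -0.39 ± 0.14 with an adjusted p of 0.159 in edgeR). The 3 sgHDAC7 libraries and sgNT replicate 1 lay together between 168.5 and 176 CPM, and sgNT replicates 2 and 3 lay above 250 CPM. By replicate, the log2 ratio came to -0.00303 for replicate 1 and -0.55 for replicates 2 and 3 combined. Under the replicate 1 term RCOR1 was called lower (log2 -0.37 ± 0.09 with an adjusted p of 0.018 in edgeR), as it was without sgNT replicate 1 (-0.57 ± 0.06, adjusted p = 0.000122), but over all alternatives its log2 fold change ran from -0.57 to -0.29 with adjusted p up to 0.41. The replicate 1 term fits 1 guide difference to all replicates, whereas the RCOR1 difference was seen in replicates 2 and 3. The demethylase KDM1A had 309 to 340 CPM in sgHDAC7 and 328 to 352 in sgNT (log2 -0.05 ± 0.06), with overlap between the arms.

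**Figure D4:**
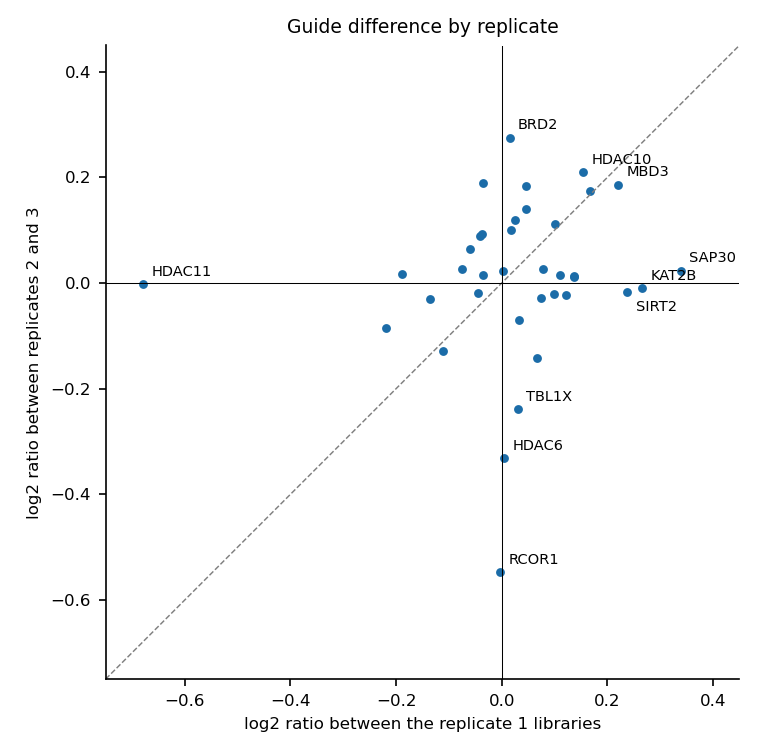
Log2 ratio of sgHDAC7 over sgNT for each member between the replicate 1 libraries (horizontal axis) and between the means of replicates 2 and 3 (vertical axis), on CPM + 0.5, with the dashed line marking equal ratios. RCOR1 (-0.003 and -0.55), HDAC6 (0.005 and -0.33) and BRD2 (0.02 and 0.28) lie off the line along the vertical axis, while MBD3 (0.22 and 0.19) lies near it.

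The WD-repeat proteins TBL1X and TBL1XR1 link NCOR complexes to chromatin and to corepressor exchange. TBL1X had 88.7, 71.2 and 69.3 CPM in sgHDAC7 and 86.8, 86.7 and 79.4 CPM in sgNT (a log2 fold change of -0.14 ± 0.10 with an adjusted p of 0.484 in edgeR). Its value in sgHDAC7 replicate 1 lay above the sgNT range, and those in sgHDAC7 replicates 2 and 3 lay below it. TBL1XR1 had 168, 193 and 184 CPM in sgHDAC7 and 175, 184 and 177 CPM in sgNT (log2 0.02 ± 0.07), with overlap.

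Of the 5 acetyltransferases none approached the threshold (edgeR adjusted p of 0.473 to 0.988). EP300 had 158, 184 and 187 CPM in sgHDAC7 and 162, 173 and 177 CPM in sgNT (log2 0.05 ± 0.08), and CREBBP had 181, 200.1 and 192 CPM in sgHDAC7 and 172, 199.5 and 185 CPM in sgNT (log2 0.04 ± 0.07). Both coactivators overlapped between the arms. KAT2A, the catalytic subunit of SAGA, had 144, 131 and 133 CPM in sgHDAC7 and 148, 124 and 137 CPM in sgNT (log2 -0.00314 ± 0.08), and its paralogue KAT2B had 31.2, 39.4 and 41.2 CPM in sgHDAC7 and 25.9, 43.2 and 38.0 CPM in sgNT (log2 0.06 ± 0.18). KAT2B was lower in replicate 1 of both arms, by log2 -0.50 ± 0.10 (edgeR adjusted p = 0.012 for the replicate 1 term), a larger difference than its guide difference. KAT5, the enzyme of the NuA4 complex, had 36.7 to 38.97 CPM in sgHDAC7 and 31.9 to 37.8 in sgNT (log2 0.14 ± 0.09).

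Among the BET readers, BRD2 (6:32968660-32981505, plus strand) had 327, 344 and 342 CPM in sgHDAC7 and 324, 286 and 280.4 CPM in sgNT (a log2 fold change of 0.19 ± 0.07 with an adjusted p of 0.189 in edgeR). Every sgHDAC7 library was above every sgNT library, but sgNT replicate 1 missed the lowest of them by little. An antisense overlap with other genes covers 11.4% of the BRD2 exon bases. BRD2 passed without sgNT replicate 1 (0.25 ± 0.06, adjusted p = 0.0164) and not with the replicate 1 term (adjusted p = 0.0631). BRD3 had 91.8, 102 and 101 CPM in sgHDAC7 and 94.7, 107 and 98.9 CPM in sgNT (log2 -0.03 ± 0.08), with overlap.

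**Figure D5:**
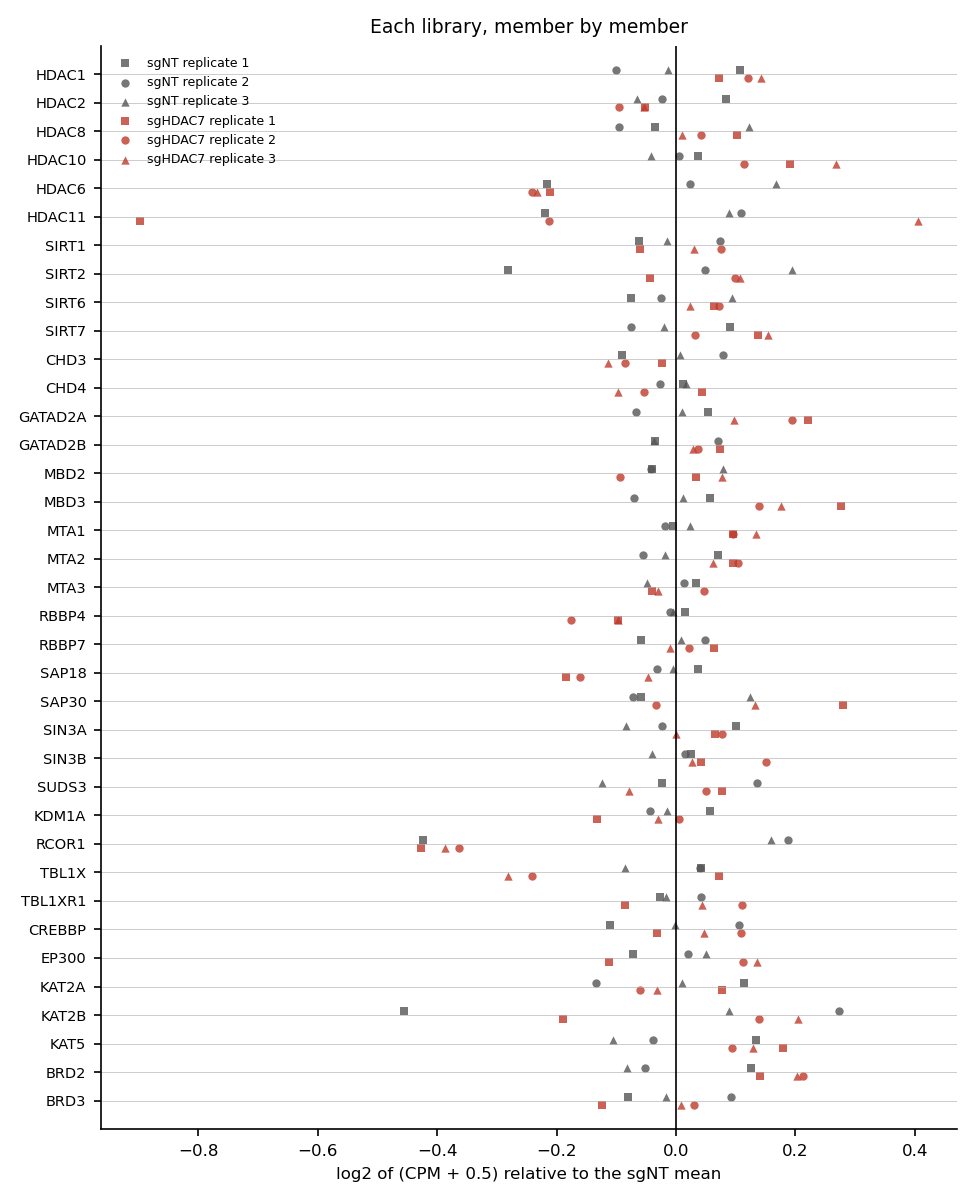
Each member's value in each library as log2 of CPM + 0.5 relative to the sgNT mean, with sgNT in grey, sgHDAC7 in red and the replicate number by marker (square 1, circle 2, triangle 3). In RCOR1 and HDAC6 the grey square lies among the red points, and in KAT2B both squares lie to the left of the other points of their arm.

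With replicates 2 and 3 alone, 8 members were called, where 20.7% of all genes were. HDAC1, HDAC10, MBD3, GATAD2A and BRD2 were higher there, and HDAC6, RCOR1 and TBL1X lower. Without sgNT replicate 1, RCOR1 and HDAC6 were lower and BRD2 higher, where 11.5% of all genes were called. In both analyses the share of members called (8 of 37 and 3 of 37) was close to or below the share of all genes. Replicates 2 and 3 of each arm were the closest libraries (their chi-square, divided by its degrees of freedom, was 3.24 and 3.53, while within-arm pairs that include replicate 1 gave 7.91 to 15.6).

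The balance between paralogues in a complex was followed as the log2 ratio of their CPM in each library, in 11 pairs. In 3 of the 11 pairs the arms did not overlap. Of all single genes 25.1% had arms that did not overlap, but no such share was computed for ratios of other gene pairs. Each of the 3 had p = 0.1 in an exact two-sided permutation test, the smallest that 3 against 3 libraries allow, and an adjusted p of 0.367 over the 11 pairs, so none passed. The HDAC1 to HDAC2 ratio was -0.82, -0.73 and -0.75 in sgHDAC7 and -0.92, -1.03 and -0.90 in sgNT, a difference of 0.18 ± 0.05. The MBD2 to MBD3 ratio was -1.28, -1.27 and -1.13 in sgHDAC7 and -1.13, -1.01 and -0.96 in sgNT, a difference of -0.19 ± 0.07. Its arms were barely separate, with -1.1312 in sgHDAC7 replicate 3 and -1.1302 in sgNT replicate 1. The RBBP4 to RBBP7 ratio was -0.44, -0.47 and -0.36 in sgHDAC7 and -0.20, -0.33 and -0.29 in sgNT, a difference of -0.15 ± 0.05. The other 8 pairs overlapped, with differences from -0.17 (TBL1X to TBL1XR1) to 0.22 (BRD2 to BRD3). Several of these moved with 1 library: the TBL1X to TBL1XR1 difference was -0.34 without sgHDAC7 replicate 1 and -0.083 without sgHDAC7 replicate 2, and the KAT2A to KAT2B difference was 0.19 without sgNT replicate 1 and -0.31 without sgNT replicate 2. Per kilobase in sgNT, HDAC1 exceeded HDAC2 2.48-fold, CHD4 exceeded CHD3 4.99-fold, GATAD2A exceeded GATAD2B 6.61-fold and KAT2A exceeded KAT2B 5.94-fold, while EP300 and CREBBP stood at 17.8 ± 0.78 and 17.2 ± 1.28 CPM per kb.

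A wider list held 103 genes, of which 101 were in the table and 100 were tested. It held further subunits of NuRD, SIN3, CoREST and NCOR, together with MiDAC subunits, mitochondrial sirtuins, other acetyltransferases with their subunits, and other readers. Of those tested, 38 were acetyltransferases or their subunits and 17 were readers, so many are not subunits of these corepressor complexes. In this wider list 5 genes were called (2 higher, 3 lower), against 2.86% of all genes, and 16 (7 higher, 9 lower) with the replicate 1 term, against 12.6%. CHD5, a CHD3 and CHD4 relative best known from neurons, fell 1.87-fold, from 104.3 ± 17.9 to 55.7 ± 13.4 CPM (n = 3 each; a log2 fold change of -0.90 ± 0.17 with an adjusted p of 0.0287 in edgeR). Its libraries read 70.9, 45.5 and 50.8 CPM in sgHDAC7 and 124.9, 94.0 and 94.0 CPM in sgNT, so the arms did not overlap. SINHCAF, a SIN3 subunit, fell from 98.2 ± 5.41 to 77.5 ± 1.35 CPM (a log2 fold change of -0.34 ± 0.07 with an adjusted p of 0.0363 in edgeR), and CORO2A, an NCOR-associated actin-binding protein, from 19.6 ± 0.68 to 11.8 ± 2.04 CPM (a log2 fold change of -0.74 ± 0.15 with an adjusted p of 0.0319 in edgeR). PWWP2B, which joins MTA and HDAC proteins outside full NuRD, rose from 15.7 ± 1.2 to 22.9 ± 1.40 CPM (a log2 fold change of 0.54 ± 0.12 with an adjusted p of 0.0436 in edgeR). TRIM24, a bromodomain protein, rose from 115 ± 4.03 to 141 ± 6.76 CPM (a log2 fold change of 0.30 ± 0.07 with an adjusted p of 0.0493 in edgeR). TRIM24 missed the threshold with RLE scaling, upper-quartile scaling, no filter and limma-trend (adjusted p of 0.0517, 0.0514, 0.0526 and 0.0512), at log2 fold changes of 0.29 to 0.30. Each of the 5 lost its call when replicate 2 or replicate 3 of either arm was left out. In those 4 omissions 0 of the list were called, and 0.202% to 0.361% of all genes were. The log2 fold changes in those 4 omissions ran from -0.97 to -0.78 for CHD5, -0.75 to -0.65 for CORO2A, -0.39 to -0.32 for SINHCAF, 0.50 to 0.59 for PWWP2B and 0.28 to 0.32 for TRIM24. Without sgHDAC7 replicate 1 CHD5 and CORO2A were called, where 1.68% of all genes were. Without sgNT replicate 1, 19 genes of the list were called, where 11.5% of all genes were.

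Several of the wider genes missed the threshold with group alone and passed with the replicate 1 term, whose values follow. In CoREST, GFI1, a repressor that recruits the complex, was lower (14.7, 9.32 and 10.7 CPM in sgHDAC7 and 36.96, 15.6 and 20.9 CPM in sgNT; log2 -1.04 ± 0.15 with an adjusted p of 0.000876 in edgeR), as was the reader PHF21A (log2 -0.29 ± 0.08 with an adjusted p of 0.0344 in edgeR). The GFI1 difference was largest in replicate 1, and without sgNT replicate 1 it was log2 -0.65 with an adjusted p of 0.0579 in edgeR. The RCOR1 paralogue RCOR2 was higher (log2 0.61 ± 0.17 with an adjusted p of 0.0373 in edgeR). RCOR2 and RCOR1 thus differed in direction under that term, from 8.50 ± 1.97 CPM (RCOR2) and 227 ± 50.2 CPM (RCOR1) in sgNT. Among acetyltransferase genes, BRPF3 and NCOA1 were higher (log2 0.47 ± 0.07 with an adjusted p of 0.00161 in edgeR, and 0.38 ± 0.07 with an adjusted p of 0.00288 in edgeR), and JADE1 and ING4 lower (log2 -0.26 ± 0.06 with an adjusted p of 0.0106 in edgeR, and -0.59 ± 0.14 with an adjusted p of 0.0155 in edgeR). Of the readers, BAZ1B was higher (log2 0.21 ± 0.05 with an adjusted p of 0.0242 in edgeR) and BAZ2A and BAZ2B lower (log2 -0.20 ± 0.05 with an adjusted p of 0.0331 in edgeR, and -0.39 ± 0.09 with an adjusted p of 0.0156 in edgeR). Several of these genes also passed in other analyses. For example, GFI1 and BRPF3 passed with DESeq2 (adjusted p of 0.00312 and 0.0139). GFI1, BRPF3 and BAZ2B passed in edgeR with the replicate block (adjusted p of 0.0045, 0.00747 and 0.0456). On simulated counts 19.8% of the DESeq2 calls and 10.4% of the edgeR calls with the replicate 1 term were false. HDAC3, the NCOR deacetylase, and the scaffold NCOR1 differed between the arms by log2 0.11 ± 0.08 and -0.07 ± 0.10, and the erythroid recruiters ZFPM1 and GFI1B by log2 0.14 ± 0.12 and 0.17 ± 0.08. These 4, picked for their roles with their values known, passed neither with group alone nor with the replicate 1 term.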

How the data were processed

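The authors deposited 1 table of read counts per gene for 6 libraries; it is called CPM, but 100% of its values are whole and its column totals differ, so the deposited values were treated as raw counts. The build hg38 and edgeR 3.32.1 come from the submitters' processing notes, which assign them no role. The sources used here do not give the aligner, counter, annotation or strand. The columns named NC were taken as sgNT, the only other group. The table has 0 rows without a gene name and 0 further value columns, and each gene exceeds 0.5 CPM in at least 2 libraries.

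Genes averaging 1 CPM or more (13841) were tested with edgeR 4.0.16 (R 4.3.3; quasi-likelihood, TMM scaling, group as the single term, two-sided, Benjamini-Hochberg over all genes, threshold 0.05). Printed CPM values are TMM-scaled. Each standard error is the size of the log2 fold change divided by the root of F, and 95% intervals use the t quantile with the fit's degrees of freedom, unadjusted. Log ratios by replicate use CPM + 0.5. DESeq2 1.42.0 and limma 3.58.1 were alternatives, with other scalings, filters, a replicate block, a replicate 1 term and omissions of libraries. Exon lengths and positions are from GENCODE 29 (GRCh38, basic protein-coding transcripts). The members, lists and the replicate 1 term were chosen with earlier results of these data known. Named are all members, HDAC7 and up to 4 further genes per complex or class with the smallest adjusted p under 0.05 in either edgeR fit. HDAC3, NCOR1, ZFPM1 and GFI1B, outside this rule, were added for their roles after their values were seen.

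Calls by edgeR (with and without the replicate 1 term), DESeq2 and limma-trend were tested on simulated counts with known changes; the other statistics were not. The filter at 20 CPM and the longest-transcript lengths were added after seeing the data.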

Additional observations from a re-analysis of the deposited data

How the results depend on the processing

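The members' count of 0 held under other scalings (RLE and upper-quartile), both other filters, DESeq2, limma-trend with either pseudocount and the replicate block. It became 2 (1 higher, 1 lower) with the replicate 1 term, against 12.6% of all genes. On replicates 2 and 3 alone it became 8 (5 higher, 3 lower), against 20.7% of all genes. Leaving out 1 library gave 0 to 3 members, 0 to 1 higher and 0 to 2 lower, against 0.202% to 11.5% of all genes. The members' median log2 fold change was 0.01719 on replicates 2 and 3 alone and 0.009134 to 0.0495 with 1 library left out. No scaling moved the median of all genes by more than 0.1. Of the members no called value changed sign. All genes called numbered 711 by DESeq2, 998 with the replicate block, 1743 with the replicate 1 term, 2861 on replicates 2 and 3 alone and 28 to 1595 with 1 library left out. Of the wider list, 10 genes were called by DESeq2 (4 higher, 6 lower), against 5.45% of all genes. The replicate block called 12 (5 higher, 7 lower), against 7.21% of all genes. With the replicate 1 term 16 of the list were called (7 higher, 9 lower), against 12.6% of all genes. Replicates 2 and 3 alone gave 32 of the list (16 each way), against 20.7% of all genes. Leaving out 1 library gave 0 to 19 genes of that list (0 to 9 higher, 0 to 10 lower), against 0.202% to 11.5% of all genes. RLE scaling, upper-quartile scaling, no filter and limma-trend each left 1 gene of that list higher (PWWP2B, without TRIM24). The cause of these shifts was not tested. The members called for replicate 1 fell from 2 to 1 with RLE scaling and to 1 with no filter.

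Deviations from the arm means correlated at 0.303, 0.107 and 0.0968 between libraries sharing replicate numbers 1, 2 and 3, so the numbers were not taken to pair the samples, and replicates 2 and 3 each correlated better with the other number (0.155 and 0.159). With the replicate block, paralogue ratios kept their values by construction. With 1 library left out, the TBL1X to TBL1XR1 difference ran from -0.34 to -0.083 and the KAT2A to KAT2B difference from -0.31 to 0.19. HDAC11, at the lowest counts, had the widest interval of the members; the part of depth in this was not tested.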
